A study of Rattus norvegicus with 18 samples.

Results

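The RNA that rides on large polysomes was compared between rat lungs of fetal day 22 (FD22) and fetal day 19 (FD19). The comparison takes 6 of the 18 arrays in the series, namely the 3 arrays of polysomal RNA from FD22 lung and the 3 from FD19 lung, which were chosen by their labels alone. All the lungs came from Wistar rats and were snap-frozen. The fetuses were delivered by Cesarean section, and no agent, allele or operation is named for either stage, so age is the only difference the labels give. The FD19 lung is labelled canalicular and the FD22 lung prenatal saccular. Each stage was sampled as 3 independent litters with 1 lysate per litter, and the labels do not say how many fetuses a lysate pools. Part of a lysate gave an array of total RNA, and the rest was spun through a sucrose gradient, from which RNA carrying more than 7 ribosomes per molecule gave an array of polysomal RNA. Newborn lung, taken 5 h after a vaginal birth, completed the series with 3 arrays of each kind.

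In the canalicular lung the distal tubules widen and capillaries spread beneath a thinning epithelium, and in the saccular lung the future air spaces form and the epithelium divides into flat type I cells for gas exchange and cuboidal type II cells that store surfactant. An mRNA that is being translated actively carries many ribosomes, so the RNA of large polysomes is mRNA in active translation, although a very short coding sequence cannot hold many ribosomes at once. A change in polysomal RNA therefore contains both a change in the amount of the mRNA and a change in the share of it that is loaded with ribosomes. Total RNA of the same lysates shows the amount alone.

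The unit throughout is the signal of a probe set of the Affymetrix Rat Genome 230 2.0 array, scaled by the authors so that the trimmed mean of every array is about 150. A signal is thus relative to all the RNA of its fraction, and the signals of different probe sets are not comparable as amounts of RNA. Median signals lay between 56.8 and 61.1 on the 6 polysomal arrays. Of 31099 probe sets, 21675 passed the filter on dim signals and stood for 11590 named genes. A change is the FD22 minus FD19 difference of log2(signal + 5.5), given with its standard error from limma, n = 3 arrays per stage, and a gene was called where the adjusted p of limma, corrected over all 21675 probe sets, was under 0.05. The added constant understates the change of genes with low signals. The number of arrays limits the precision.

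Several arrays stood apart from others of their group. FD22 replicate 2 carried liver genes on its polysomal and on its total array: Alb, the albumin gene, had polysomal signals of 62.9, 64.3 and 109 at FD19 and 31.6, 4892 and 47.2 at FD22, and Afp, the fetal serum protein of liver, had 6.1, 51.2 and 43.5 at FD19 and 1.2, 1443 and 1.9 at FD22. In all 10 genes were above 200 on that polysomal array and more than 4-fold above both of its partners, namely A2m, Afp, Alb, Apoc1, Fgg, Gc, Plg, Rbp4, Serpina1 and Ttr. FD19 replicate 1 carried the skeletal muscle genes Acta1, Myl1, Myl11 and Tnnc2 in the same way. FD19 replicate 3 differed on its polysomal array. Among the 13 genes that were more than 8-fold higher at FD22 in total RNA and bright at FD22, this array was the highest of the FD19 polysomal arrays in 13 of 13, at a median of 22.4% of the FD22 polysomal mean against 6.72% and 8.43% for replicates 1 and 2. The total arrays of the same lysates had medians of 6.53%, 6.58% and 6.34% of the FD22 total mean, values that the choice of genes by their total change keeps low. Single genes spread more widely in total RNA, among them Defb4 with total signals of 39.7, 697 and 83.1. What set these arrays apart was not tested. Values without 1 lysate are given where leaving it out ended the call of a named gene or moved its change by over 1.5 times, and where it moved the count of a gene group by as much.

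The labelled tissue was checked against markers of lung. Sftpc, the surfactant protein gene found almost only in the lung, had polysomal signals of 3909, 4215 and 4779 at FD19 and 3836, 5298 and 4748 at FD22. The stages overlapped, and it was not called (0.10 ± 0.21, adjusted p = 0.821). Nkx2-1, the transcription factor gene of lung epithelium, was present on every array (971, 1087 and 1076 at FD19 and 928, 806 and 786 at FD22), as were the endothelial gene Pecam1 (491, 521 and 628 at FD19 and 708, 942 and 994 at FD22) and the leukocyte gene Ptprc (40.2, 42.3 and 61.6 at FD19 and 115, 140.1 and 168 at FD22). Sox10, a marker of neural crest, was under the filter on dim signals. Markers of heart and skeletal muscle were measured and not called. The heart gene Nppa lay between 371.5 and 1128.5 at FD19 and between 71.6 and 2708.7 at FD22. Myh6, also of heart, lay between 218.1 and 356.3 at FD19 and between 96.0 and 272.4 at FD22. The skeletal muscle gene Ckm lay between 56.5 and 208.8 at FD19 and between 48.7 and 180.2 at FD22. Since the lung was taken whole, more cells of a type and more RNA per cell cannot be told apart in any change that follows.

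Across all genes the change between the stages was broad and ran in both directions. Of the 21675 probe sets 3451 were called (15.9%), 1781 of them higher at FD22 (8.22%) and 1670 lower (7.7%). More than 2-fold changes made up 1040 of these and more than 4-fold changes 98. Counted as genes, 2275 of 11590 were called (19.6%), 1167 higher (10.1%) and 1108 lower (9.56%), and these shares are the background against which the counts of gene groups are read. The median change of all genes was -0.02. With the replicate number as a block the number of called probe sets was 5481, of which 2601 were higher and 2880 lower. Without FD19 replicate 1 it was 2290 and without FD19 replicate 2 it was 1996. The 3 arrays of a stage lay wholly above or below those of the other for 2214 of the 2275 called genes, and for 36.8% of all genes (17.8% above and 19.1% below at FD22). The rises reached further than the falls: 408 genes rose and 257 fell by more than 2-fold.

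**Figure D1:**
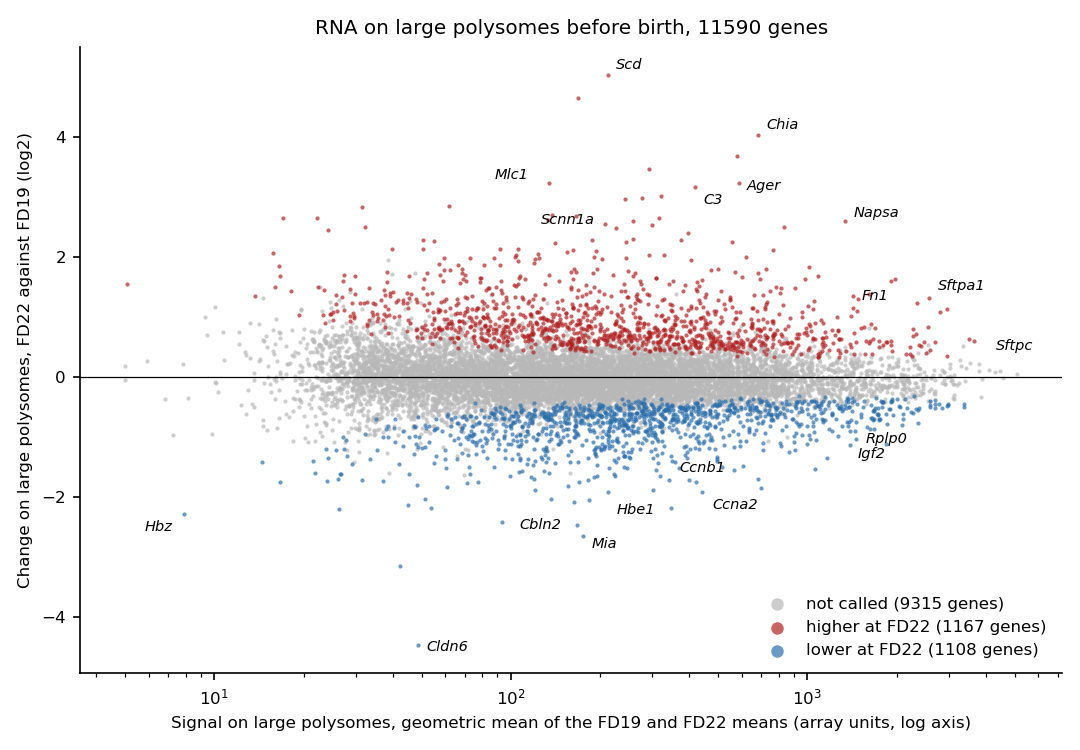
Polysomal change from FD19 to FD22 (log2, vertical axis) against the mean polysomal signal of the probe set (logarithmic axis) for 11590 genes, with called genes coloured by direction. Rises extended to 5.03 (Scd) and falls to -4.46 (Cldn6), and called genes were found over the whole range of signals.

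The largest rise was that of Scd, which codes for stearoyl-CoA desaturase, the enzyme that puts a double bond into fatty acids. Its polysomal signals were 14.1, 3.3 and 128 at FD19 and 768, 968 and 1054 at FD22. All FD22 arrays were above all FD19 arrays, which the rule for choosing the 10 largest rises requires. The change was 5.03 ± 0.63 (adjusted p = 2.92e-05), or 6.14 without FD19 replicate 3, whose signal was the highest of its group. Chia, an acidic chitinase secreted by epithelium, had 53.5, 66.7 and 504 at FD19 and 1404, 2003 and 3342 at FD22, a change of 4.03 ± 0.54 that came to 5.02 without the same lysate. Defb4, an antimicrobial peptide gene, stood at 32.2, 239 and 251 at FD19 and 3048, 1777 and 925 at FD22 and rose by 3.69 ± 0.80 (adjusted p = 0.00333). It was not called with the arrays numbered 2 and 3 alone (adjusted p = 0.0751). Every other gene of the 10 largest rises kept its call under all settings tried. Atp6v1c2, a subunit of the vacuolar proton pump, rose by 3.47 ± 0.57, Mlc1 by 3.24 ± 0.25, the type I cell receptor gene Ager by 3.23 ± 0.25, the complement gene C3 by 3.17 ± 0.27, the chitinase-like gene Chi3l1 by 3.02 ± 0.34, the secreted phospholipase gene Pla2g2a by 2.98 ± 0.41 and Aebp1, which codes for a matrix protein, by 2.97 ± 0.35. Replicate 3 was the highest FD19 array for each of these 10 genes.

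The deepest falls among genes that stayed measurable were those of Mia, a secreted protein of cartilage, and Cbln2, a secreted synaptic organizer. Mia had polysomal signals of 518, 477 and 355 at FD19 and 88.1, 65.1 and 51.5 at FD22, a change of -2.64 ± 0.18 (adjusted p = 2.13e-07, the smallest of the comparison). Cbln2 went from 374, 413 and 422 at FD19 to 55, 84.6 and 69.4 at FD22 (-2.46 ± 0.23). Neither gene overlapped between stages, which the rule for choosing these 10 genes requires, so it adds nothing to their calls. The embryonic globin gene Hbe1 fell by 2.17 ± 0.34, Arxes1 by 2.08 ± 0.22, Trim59 by 2.04 ± 0.29 and the neuronal hydrolase gene Uchl1 by 2.03 ± 0.41. The mitotic kinase gene Pbk fell by 1.91 ± 0.19, the cyclin gene Ccna2 by 1.91 ± 0.29, the splicing gene Snrpa by 1.88 ± 0.23 and the globin gene Hbg1 by 1.88 ± 0.31. All 10 kept their calls under every setting tried.

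Some genes were bright at only 1 of the stages. Cldn6, a claudin of embryonic epithelium, had polysomal signals of 282, 317 and 252 at FD19 and 4.1, 14.6 and 6.2 at FD22, and its change of -4.46 ± 0.38 was the deepest fall of all. At FD22 it was about as dim as the constant added in the log transform, so the size of this change depends on that constant. Csap1 (147, 140.1 and 159 at FD19 and 11.1, 16.7 and 8.6 at FD22), the sodium channel gene Scn2b (138, 130.5 and 104 at FD19 and 21.6, 22.8 and 25.4 at FD22) and the kinetochore gene Dsn1 (125, 130.5 and 106 at FD19 and 30.8, 39.4 and 21.8 at FD22) also sank under the filter level of 40.8 on all FD22 arrays. In the other direction Isg15, a ubiquitin-like protein induced by interferon, had 20.2, 25.1 and 23.3 at FD19 and 154, 111 and 131 at FD22 and rose by 2.27 ± 0.26. Phf1 (21.6, 14.2 and 26.9 at FD19 and 149, 99.1 and 119 at FD22), Asb11 (25.5, 34 and 31.6 at FD19 and 107, 118 and 126 at FD22) and Plet1 (21.1, 15.7 and 29.9 at FD19 and 108, 107 and 128 at FD22) rose from under the filter level as well. These genes kept their calls under every setting tried.

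**Figure D2:**
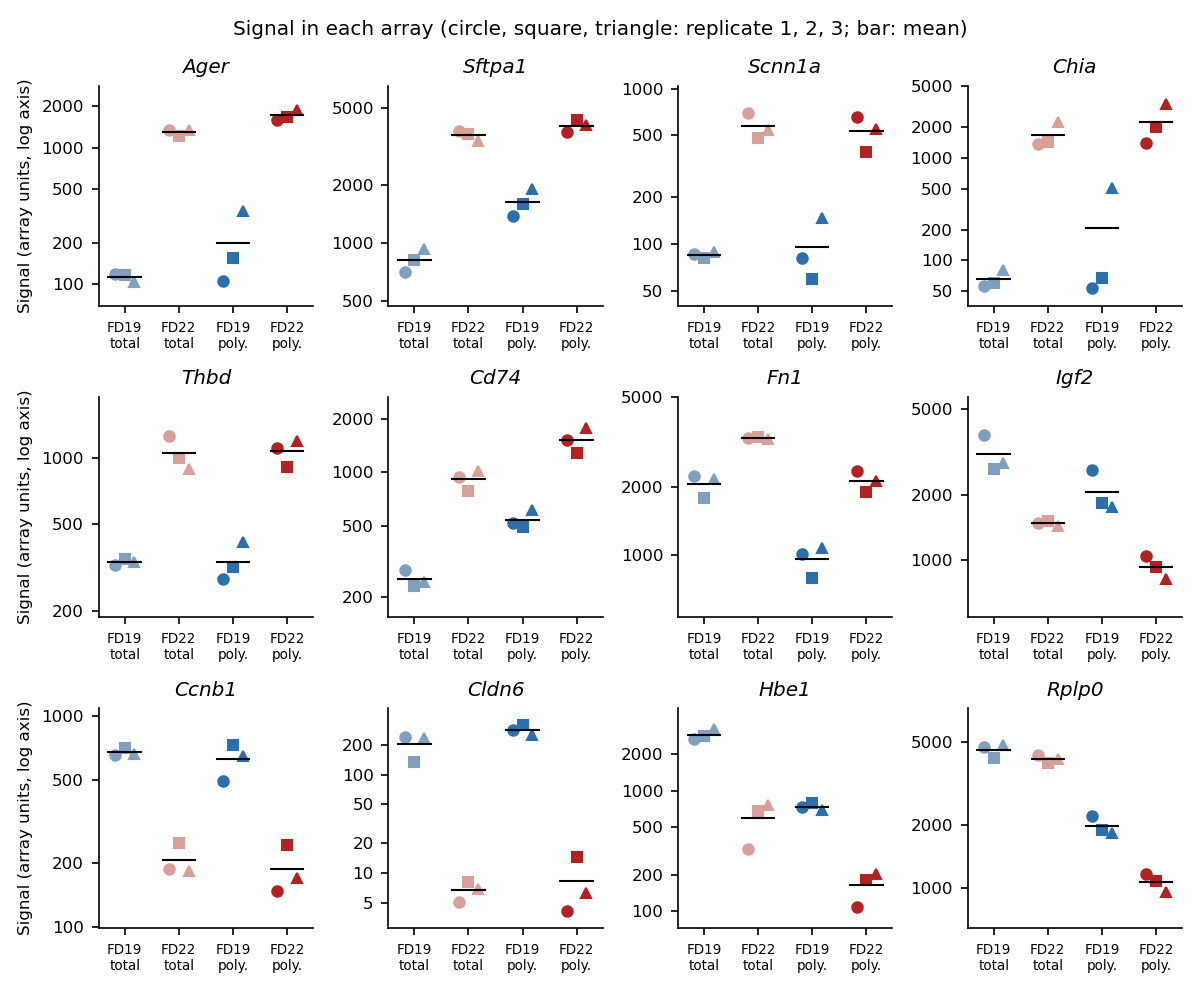
Signals of 12 genes on each FD19 and FD22 array (logarithmic axis), total RNA beside polysomal RNA, with circles, squares and triangles for replicates 1, 2 and 3. In polysomal RNA the FD22 arrays lay above the FD19 arrays for Ager, Sftpa1, Scnn1a, Chia, Thbd, Cd74 and Fn1, and under them for Igf2, Ccnb1, Cldn6, Hbe1 and Rplp0.

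Surfactant and type II cell genes were among the groups that rose. Of 28 measured, 15 were higher and 1 was lower, with a median change of 0.64 (total RNA: 17 higher, 2 lower, median 0.83, where 9.68% of all genes were higher and 10.4% lower). Sftpa1, which codes for a collectin of surfactant, had polysomal signals of 1385, 1599.8 and 1911 at FD19 and 3767, 4343 and 4089 at FD22. The stages did not overlap, and the change was 1.32 ± 0.12 (adjusted p = 2.22e-06). Sftpb, which codes for the hydrophobic protein that spreads the surfactant film, had 1355, 2184 and 2557 at FD19 and 3860.0, 4793 and 4319 at FD22 (1.13 ± 0.19), and the second collectin gene, Sftpd, had 1308, 1957 and 2569 at FD19 and 3295, 4394 and 4378 at FD22 (1.09 ± 0.19). For these 3 genes FD19 replicate 1 was the lowest array and replicate 3 the highest of its stage. Napsa, the protease that trims surfactant proteins, rose more steeply, with signals of 424, 308 and 990.2 at FD19 and 2689.6, 3260.5 and 3468 at FD22 and a change of 2.61 ± 0.31. The fatty acid transporter gene Cd36 rose by 2.00 ± 0.21 and Lpcat1, the acyltransferase that remodels surfactant lipid, by 1.19 ± 0.16. The member called lower was Nkx2-1, at -0.31 ± 0.10 (adjusted p = 0.0392). That call ended with the replicate number as a block (adjusted p = 0.0644) and without any 1 lysate except FD22 replicate 1, where the adjusted p was 0.0513, 0.171 and 0.143 as FD19 replicates 1, 2 and 3 were left out and 0.115 and 0.135 as FD22 replicates 2 and 3 were. Among the members not called were Sftpc and Lyz2, the lysozyme gene of macrophages and rodent type II cells, which stood at 2398, 1927 and 4243 at FD19 and 3088, 4633 and 4057 at FD22. The stages overlapped for Lyz2 (0.52 ± 0.26, adjusted p = 0.197), and without FD19 replicate 3, its highest FD19 array, the change was 0.85 (adjusted p = 0.0351).

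The vacuolar proton pump acidifies the lamellar bodies in which type II cells store surfactant. Of 17 measured subunit genes 4 were called higher and 0 lower, with a median of 0.18, and the count was 1 without FD19 replicate 1, without FD19 replicate 3 or without FD22 replicate 2, but 2 without FD19 replicate 2. With the 6 polysomal arrays fitted alone, or with the arrays numbered 2 and 3 alone, the count was 1. Atp6v1c2, the steepest, had polysomal signals of 29.6, 32.4 and 248 at FD19 and 903, 441 and 1120.3 at FD22, so that FD19 replicate 3 alone stood well above the other arrays of its stage. Its change was 3.47 ± 0.57 in polysomal and 5.67 in total RNA, and 4.40 in polysomal RNA without that lysate.

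Type I cells, whose thin sheets make up most of the gas-exchange surface, gave 15 of 18 genes higher and 1 lower (median 0.91, total RNA 15 and 1 with 1.06). Ager, the receptor that marks these cells, had polysomal signals of 105, 154 and 341 at FD19 and 1594, 1686 and 1885 at FD22. Every FD22 array was several times brighter than the brightest FD19 array, and the change was 3.23 ± 0.25 (adjusted p = 4.18e-07), or 3.69 without FD19 replicate 3. Akap5, an anchor for protein kinase A, followed with 31.2, 65.2 and 102 at FD19 and 388, 346 and 520.0 at FD22 (2.68 ± 0.35). Hopx, a homeodomain regulator gene of type I cells, had 886, 699 and 1843 at FD19 and 3326, 3209 and 3041 at FD22 (1.60 ± 0.21), again with replicate 3 the highest at FD19. Gprc5a rose by 1.02 ± 0.11, the metalloproteinase inhibitor gene Timp3 by 1.38 ± 0.18 and the membrane protein gene Emp2 by 0.81 ± 0.10. The member that fell was Igfbp2, a binding protein of insulin-like growth factors, with 1052, 1479 and 1392 at FD19 and 533, 787 and 541 at FD22 (-1.08 ± 0.18).

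Airway club and ciliated cell genes were higher in 11 of 14 cases and lower in 0 (median 1.04), and in 7 cases with the arrays numbered 2 and 3 alone. Muc5b, a mucin of the airways, had polysomal signals of 91.6, 83.7 and 204 at FD19 and 644, 608 and 881 at FD22 and rose by 2.53 ± 0.25. Among the other members called, Tppp3 rose by 1.5 ± 0.17, Rsph1, a part of the axoneme's radial spokes, by 1.16 ± 0.21, and Foxj1, the transcription factor gene that drives ciliogenesis, by 0.73 ± 0.14 (adjusted p = 0.00156).

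At birth the lung turns from secreting liquid to absorbing it through epithelial sodium channels. Of 22 measured genes of ion and water transport, 10 were higher and 0 lower on large polysomes (median 0.53). Scnn1a, the pore subunit of the sodium channel, had signals of 80.8, 59.5 and 148 at FD19 and 661, 393 and 552 at FD22, and the change was 2.48 ± 0.26 (adjusted p = 7.34e-06). Scnn1g had 64.1, 71.1 and 111 at FD19 and 212, 250.1 and 305 at FD22 (1.60 ± 0.21) and Scnn1b 65.5, 70.9 and 75.4 at FD19 and 139, 116 and 134 at FD22 (0.83 ± 0.19, adjusted p = 0.00486). For all 3 subunits the FD22 arrays lay above the FD19 arrays. Sgk1, a kinase that keeps the channel at the cell surface, rose by 1.4 ± 0.17, the water channel gene Aqp4 by 1.76 ± 0.28 and the potassium channel subunit gene Kcne2 by 1.74 ± 0.26. Among claudin and junction genes the group was divided, with 6 of 28 higher (3 without FD19 replicate 1 or FD22 replicate 3) and 5 lower (3 without FD19 replicate 2 or 3). Cldn18, the claudin of alveolar epithelium, rose by 0.58 ± 0.13 and the tight junction gene Ocln by 0.77 ± 0.17, while Cldn4 fell by 1.06 ± 0.17 and Cldn8 by 1.09 ± 0.23, beside Cldn6. Foxp2, a forkhead gene of distal lung epithelium, fell from 853, 838 and 888 at FD19 to 413, 399.9 and 409 at FD22 (-1.07 ± 0.12), in a list of epithelial transcription factors with 5 of 28 higher and 4 lower. The latter count was 2 without FD19 replicate 1 or FD22 replicate 1 and 1 without any other lysate.

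In the endothelial list 20 of 34 genes were higher and 0 lower (median 0.68, total RNA 24 and 0). Thbd, the thrombin receptor on capillary walls, had polysomal signals of 282, 318 and 412 at FD19 and 1117, 912 and 1198 at FD22 (1.67 ± 0.17, adjusted p = 4.23e-06). Epas1, the hypoxia-inducible factor gene of endothelium, had 573, 650.5 and 806 at FD19 and 1526, 1483 and 1904 at FD22 (1.27 ± 0.13), and Ace, the converting enzyme of lung capillaries, had 68.4, 82 and 115 at FD19 and 314, 235 and 383 at FD22 (1.75 ± 0.20). In each of these the lowest FD22 array was well above the highest FD19 array. Smaller rises were those of Tmem100 (1.22 ± 0.17), the flow-responsive factor gene Klf2 (1.10 ± 0.16), the VEGF receptor gene Kdr (0.86 ± 0.13) and Pecam1 (0.68 ± 0.15, adjusted p = 0.00338). Vegfa, the growth factor that Kdr binds, had signals of 743, 590.2 and 751 at FD19 and 1231, 842 and 1066 at FD22. The stages did not overlap and the change was 0.58 ± 0.18 (adjusted p = 0.0312), but the call ended without FD19 replicate 1 (0.0597), 2 (0.171) or 3 (0.0552), without FD22 replicate 1 (0.0738) or 3 (0.0989), and on arrays 2 and 3 of each group alone (0.119).

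Of 29 leukocyte genes 18 were higher and 0 lower (median 0.92). Their summed polysomal signal lay between 6119 and 9000.5 at FD19 and between 11370.3 and 12850.1 at FD22. Ptprc, the pan-leukocyte antigen CD45, rose by 1.46 ± 0.18, the actin bundler gene Lcp1 by 1.58 ± 0.17 and the oxidase gene Cybb by 1.87 ± 0.25. Mrc1, the mannose receptor of macrophages, rose by 1.16 ± 0.16 and the lysosomal membrane gene Laptm5 by 1.09 ± 0.15. Of 8 MHC class II genes 6 rose and 0 fell (median 0.68), a count of 3 without FD19 replicate 1 or with the arrays numbered 2 and 3 alone, and of 2 with the 6 polysomal arrays fitted alone. Cd74, the invariant chain that escorts class II molecules, had polysomal signals of 518, 490.2 and 618 at FD19 and 1519.6, 1286 and 1771 at FD22 (1.48 ± 0.15). RT1-Db1, a class II chain with near-identical relatives whose binding to this probe set was not tested, rose by 0.98 ± 0.22. Of 8 genes of T and B cells 0 were called in limma, with a median of 0.44.

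Erythroid genes went the other way, with 11 of 28 lower and 1 higher (median -0.46). The count of lower genes was 5 without FD19 replicate 1, 6 without FD19 replicate 2, 6 without FD22 replicate 1, 5 without FD22 replicate 3 and 4 on arrays 2 and 3 of each group alone. With the 6 polysomal arrays fitted alone it was 6. The globin genes of early red cells led the falls. Hbe1 had polysomal signals of 729.8, 782 and 687 at FD19 and 108, 181 and 204 at FD22. Hbg1 had 299, 255 and 161 at FD19 and 41.1, 56.9 and 85.4 at FD22, and Hbz, dim already at FD19, had 29.2, 35.2 and 29.1 at FD19 and 2.1, 1.4 and 2.6 at FD22 (-2.28 ± 0.42). For all 3 the stages did not overlap. Hbb, an adult globin gene, stood at 4822, 4746 and 5454 at FD19 and 4244, 5850.5 and 5556 at FD22 and was not called (0.05 ± 0.20, adjusted p = 0.919).

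Late in gestation fetal glucocorticoid rises and matures the lung. Of 31 genes of the glucocorticoid response and the clock, 13 were higher and 0 lower (median 0.51), or 8 without FD19 replicate 2. Cebpd, a hormone-induced transcription factor gene, had polysomal signals of 155, 127 and 226 at FD19 and 578, 337 and 764 at FD22 (1.66 ± 0.33), the metal-binding protein gene Mt1 rose by 1.34 ± 0.28, Errfi1, a brake on the EGF receptor, by 0.91 ± 0.13, and the clock repressor genes Bhlhe40 and Bhlhe41 by 0.99 ± 0.22 and 1.4 ± 0.24. In the immediate early list 8 of 38 genes were higher and 1 lower, with Klf6 at 0.82 ± 0.13. That count of rises was 3 without FD19 replicate 1, 5 without FD19 replicate 2 or FD22 replicate 3, and 4 on arrays 2 and 3 of each group alone.

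In metabolism 13 of 35 genes of fatty acid and lipid handling were higher and 2 lower (median 0.36). After Scd these included the lipoprotein lipase gene Lpl (231, 207 and 309 at FD19 and 795, 621 and 916 at FD22, 1.62 ± 0.27), Acsl4, which activates fatty acids (1.22 ± 0.15), and the lipid exporter genes Abca1 (1.18 ± 0.19) and Abcg1 (1.33 ± 0.20). Of 21 cholesterol synthesis genes 1 was higher and 1 lower, the former Insig1, a brake on sterol synthesis (0.95 ± 0.16), and the block gave 4 higher. The sign of the median of this group turned with quantile normalization or median centring. Antioxidant and detoxifying genes were mixed, with 11 of 44 higher and 6 lower (3 lower without FD19 replicate 2 or replicate 3, and 10 under the block). Gsta1, a glutathione transferase, had polysomal signals of 131, 158 and 196 at FD19 and 642, 779 and 593 at FD22 (2.03 ± 0.28), the epoxide hydrolase gene Ephx1 rose by 1.5 ± 0.23, Fmo2, a monooxygenase of lung, by 1.5 ± 0.24, and Cp, the copper-carrying ferroxidase, by 1.17 ± 0.13, while the peroxiredoxin gene Prdx4 fell by 0.72 ± 0.13. In the amino acid and stress response list 2 of 21 were higher and 6 lower (2 and 3 lower without FD19 replicates 1 and 2). Psat1, an enzyme of serine synthesis, fell from 1714, 1974 and 1994 at FD19 to 809, 1237 and 1042 at FD22 (-0.89 ± 0.17), whereas Trib3 rose by 0.81 ± 0.18. Phgdh, the first enzyme of the same pathway as Psat1, fell by 1.36 ± 0.36 (adjusted p = 0.0136). It was no longer called without FD19 replicate 1 (0.0557) or 2 (0.0516). Of 35 hypoxia and glycolysis genes 4 were higher and 3 lower (1 lower without FD19 replicate 3, and 7 higher and 6 lower under the block), among them Pfkfb3, a switch of glycolytic flux (1.55 ± 0.31), and the glycolytic enzyme gene Tpi1 (-0.70 ± 0.17).

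Genes of cell division fell nearly as a whole. Of 62 measured cell cycle and mitosis genes 55 were lower and 0 higher, with a median of -1.19 (total RNA: 58 lower, median -1.41). Ccnb1, the cyclin that drives entry into mitosis, had polysomal signals of 494, 729 and 649.8 at FD19 and 147, 244 and 170.5 at FD22. Every FD22 array was dimmer than every FD19 array, and the change was -1.72 ± 0.18 (adjusted p = 5.62e-06). Ect2, an activator of the cleavage furrow, had 755, 832 and 724 at FD19 and 206, 293 and 188 at FD22 (-1.75 ± 0.19) and Kif11, the motor that separates spindle poles, 388, 392 and 340.2 at FD19 and 142, 158 and 111 at FD22 (-1.42 ± 0.18). Within FD22, replicate 2 was the highest of the 3 arrays for each of these genes.

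Promoters of the genes that fell together were read from the RefSeq annotation of assembly GRCr8, in which 9617 of the 11590 genes were matched. Cell cycle promoters are known for CCAAT boxes, which recruit NF-Y, and for the element TTTGAA, the core of the cell cycle homology region. On either strand of the 250 bases before the start, CCAAT was found in 75.9% of the 54 cell cycle promoters available and in 35.6% of all promoters, and TTTGAA in 44.4% and 9.98%. Promoters with CCAAT and with TTTGAA or its variant TTCGAA made up 48.1% of the cell cycle promoters and 4.51% of all. These shares count list members whether called or not. Both elements were held by 51.1% of the promoters of cell cycle genes called lower and by 9.83% of those of all genes called lower. The motif TTCCCGC, the core of E2F sites, was found in 22.4% of promoters in the DNA replication list, in 5.56% of the cell cycle promoters and in 6.61% of all. These shares describe letters in a window and show no binding. The 4 windows of 120 bases shown next belong to Ccnb2 (chr8:79981659-79981778), the proliferation antigen gene Mki67 (chr1:199952594-199952713), the topoisomerase gene Top2a (chr10:84473094-84473213) and the chromosomal passenger gene Cdca8 (chr5:142483200-142483319), all on the minus strand of GRCr8 and printed in the direction of transcription, because each holds both elements and its gene was called lower. Of the 47 promoters available for cell cycle genes called lower, 17 held CCAAT and TTTGAA or TTCGAA within such a window. The share over all promoters was not counted for this shorter window. Capitals mark CCAAT and TTTGAA, read on either strand (ATTGG and TTCAAA are their reverse complements). In Mki67 and Cdca8 both elements run together in TTTGAATTGG, where they share 1 base.
Ccnb2: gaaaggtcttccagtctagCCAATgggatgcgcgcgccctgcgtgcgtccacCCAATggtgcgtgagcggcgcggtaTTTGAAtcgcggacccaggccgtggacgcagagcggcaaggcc
Mki67: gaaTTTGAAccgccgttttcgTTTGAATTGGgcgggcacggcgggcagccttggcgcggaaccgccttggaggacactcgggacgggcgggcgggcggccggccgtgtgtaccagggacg
Top2a: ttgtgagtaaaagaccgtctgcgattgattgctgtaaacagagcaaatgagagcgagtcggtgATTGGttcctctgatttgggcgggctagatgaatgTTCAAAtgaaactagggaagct
Cdca8: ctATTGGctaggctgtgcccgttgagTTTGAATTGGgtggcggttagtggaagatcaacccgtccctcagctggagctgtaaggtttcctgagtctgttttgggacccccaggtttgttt

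Of the genes with these windows, Ccnb2 had polysomal signals of 938, 1019 and 926 at FD19 and 295, 450.1 and 258 at FD22 (-1.55 ± 0.20) and Mki67 842, 728 and 665 at FD19 and 314, 353 and 299 at FD22 (-1.19 ± 0.17). Top2a had 715, 763 and 625 at FD19 and 337, 352 and 239 at FD22 (-1.18 ± 0.17) and Cdca8 366, 449 and 404 at FD19 and 142, 186 and 145 at FD22 (-1.34 ± 0.20). None overlapped between the stages, and the adjusted p of limma ran up to 0.000156.

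Among DNA replication and repair genes 36 of 54 were lower and 0 higher (median -0.80), or in 22 with the arrays numbered 2 and 3 alone. Prim1, the primase that starts new strands, had polysomal signals of 722, 863 and 803 at FD19 and 283, 388 and 259 at FD22 (-1.36 ± 0.16), and Rfc4, a subunit of the clamp loader, had 242, 243 and 252 at FD19 and 95.4, 119 and 81.6 at FD22 (-1.29 ± 0.15). Gmnn, which stops origins from firing again, fell by 1.09 ± 0.14, the uracil glycosylase gene Ung by 1.20 ± 0.15 and the polymerase subunit gene Pold2 by 1.00 ± 0.13. Chromatin genes were lower in 16 of 32 cases and higher in 0 (median -0.46). Leaving out FD19 replicates 1, 2 and 3 in turn this count was 10, 7 and 9, leaving out FD22 replicates 1 and 3 it was 10 and 9, and it was 8 on arrays 2 and 3 of each group alone. Hmgb3, a chromatin architectural protein of proliferating cells, had 1281, 1199 and 1159.7 at FD19 and 560.3, 542 and 542 at FD22 (-1.14 ± 0.19), while the histone chaperone genes Asf1b and Anp32b fell by 1.47 ± 0.20 and 0.75 ± 0.13 and the helicase gene Hells by 0.90 ± 0.19.

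Genes that process RNA and build ribosomes fell in part. Splicing and hnRNP genes were lower in 23 of 46 cases and higher in 0 (median -0.49), with Hnrnpd at 1750.4, 1856 and 1743 at FD19 and 814, 1003 and 901 at FD22 (-0.98 ± 0.14), Srsf2 at 2403, 2381 and 2500.2 at FD19 and 1317, 1559.6 and 1363 at FD22 (-0.78 ± 0.12) and the splice-site factor gene U2af1 at -0.69 ± 0.12. Nucleolar genes of ribosome assembly were lower in 18 of 40 cases and higher in 0 (median -0.40), or in 10 without FD19 replicate 2 or with the arrays numbered 2 and 3 alone. Fbl, the methyltransferase that modifies ribosomal RNA, had polysomal signals of 1254, 1235 and 1071 at FD19 and 518, 632 and 516 at FD22 (-1.09 ± 0.14), its partner Nop58 899, 914 and 958 at FD19 and 430.4, 484 and 513 at FD22 (-0.95 ± 0.11), and Gar1 fell by 1.17 ± 0.16. Proteasome subunit genes were lower in 7 of 33 cases and higher in 0 (median -0.31), 0 without FD19 replicate 2, 4 without FD19 replicate 3 and 14 with the replicate number as a block.

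**Figure D3:**
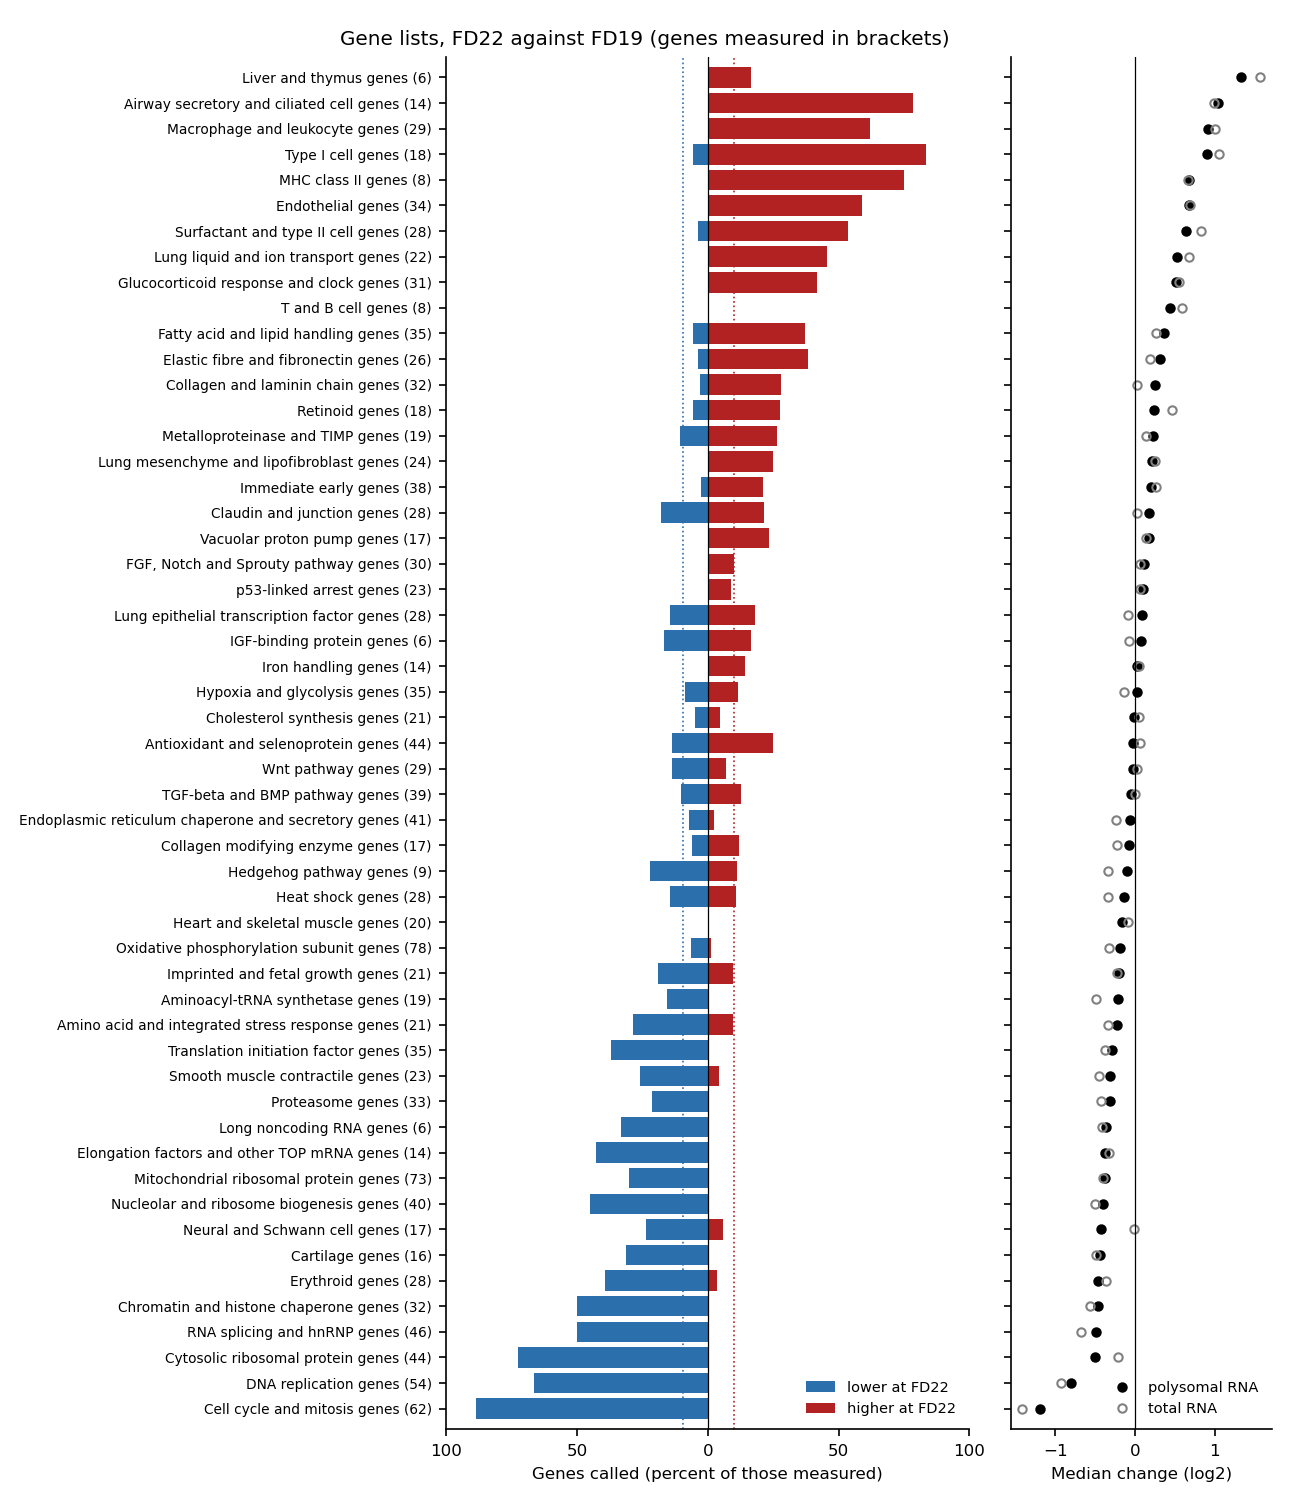
Share of the measured genes of 53 lists called higher or lower on large polysomes at FD22 (percent), with dotted lines at the shares of all genes (10.1% and 9.56%), and the median log2 change of each list in polysomal and total RNA. Type I and airway genes had the highest shares of rises, cell cycle and cytosolic ribosomal protein genes the highest shares of falls.

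The mRNAs of cytosolic ribosomal proteins carry a 5-prime TOP motif, through which growth signals set how fully they are loaded with ribosomes. On large polysomes 32 of 44 were lower at FD22 and 0 higher (median -0.50, 0 of 44 above 0). In total RNA of the same lysates 6 were lower and 0 higher (median -0.21). Rplp0, the stalk protein, had polysomal signals of 2212, 1884 and 1836 at FD19 and 1158, 1081 and 958 at FD22. The stages did not overlap and the change was -0.89 ± 0.11 (adjusted p = 2.67e-05), against -0.14 in total RNA. Rpl4 had polysomal signals of 2363, 2282 and 2158 at FD19 and 1255, 1328 and 1149 at FD22 (-0.86 ± 0.11, total RNA -0.39), and Rps3 had 2626, 2606 and 2769 at FD19 and 1616, 1669 and 1659.9 at FD22 (-0.69 ± 0.12, total RNA -0.29). Their FD19 arrays were all brighter than their FD22 arrays. Rpl14, Rpl21 and Rpsa fell by 0.83 ± 0.12, 0.81 ± 0.12 and 0.75 ± 0.13. The count of lower genes was 19 without FD19 replicate 1, 26 without FD19 replicate 3, without FD22 replicate 2 or from the arrays numbered 2 and 3 alone, and 38 with the replicate number as a block. Many ribosomal protein genes have near-identical pseudogenes, and their binding to these probe sets was not tested. The polysomal change was under the total change for 40 of the 44, with a median difference of -0.26, but 0 of these differences was called by limma. In newborn polysomal RNA the signals of Rps3 were 2357, 3115 and 2142, which are given for this gene alone and do not describe the other members of the list. The change from FD22 to newborn lung was not tested.

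The rest of the translation machinery gave smaller counts. Of 14 other TOP mRNAs 6 were lower and 0 higher (median -0.37). Eef1b2, an exchange factor of elongation, had polysomal signals of 2254, 2155 and 2157 at FD19 and 1229, 1176 and 1198 at FD22 (-0.86 ± 0.11), Eef1g fell by 0.75 ± 0.11, the ribosome-bound scaffold gene Rack1 by 0.70 ± 0.11 and the nascent chain chaperone gene Naca by 0.51 ± 0.12. Initiation factor genes were lower in 13 of 35 cases and higher in 0 (median -0.29), or in 8 with the arrays numbered 2 and 3 alone or with the 6 polysomal arrays fitted alone. Eif4a1, the helicase that opens the leader of an mRNA, had 2326, 2995 and 2836 at FD19 and 1291, 1965 and 1511 at FD22 (-0.79 ± 0.15), and Eif3i and Eif2s2 fell by 0.84 ± 0.14 and 0.61 ± 0.10. Mitochondrial ribosomal protein genes were lower in 22 of 73 cases and higher in 0 (median -0.38). That count was 12 and 14 without FD19 replicates 1 and 2, 10 without FD22 replicate 3, 12 with the arrays numbered 2 and 3 alone and 38 with the replicate number as a block. It was 11 with the 6 polysomal arrays of both stages fitted alone and 14 with the 9 polysomal arrays of the series. Mrps9 fell by 0.89 ± 0.14 and Mrpl49 by 0.92 ± 0.19. Of 78 oxidative phosphorylation genes 1 was higher, the muscle isoform gene Cox7a1 (1.27 ± 0.20), and 5 were lower, a share of calls under the background. The block gave 4 higher and 19 lower. The lower count was 1 and 2 with FD19 replicates 1 and 2 left out, and 9 and 2 with FD22 replicates 1 and 3 left out. Called or not, 67 of the 78 changes were under 0 (median -0.19). In total RNA 2 were higher and 21 lower (median -0.33), where 10.4% of all genes were lower. The polysomal change was above the total change for 62 of the 78 (median difference 0.12), and 0 of these differences was called.

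Genes of collagen and laminin chains and of elastic fibres were called higher more often than lower on large polysomes. Of 32 collagen and laminin chain genes 9 were higher and 1 lower (median 0.25), against 4 and 6 in total RNA (median 0.02), and the higher count was 5 without FD22 replicate 1, without FD22 replicate 3 or with the arrays numbered 2 and 3 alone. The polysomal change was above the total change for 30 of the 32 (median difference 0.31), and 0 of these differences was called. Col4a1 and Col4a2 make the main collagen of basement membranes. Col4a1 had polysomal signals of 837, 758 and 870.4 at FD19 and 1710.3, 1316 and 1649.8 at FD22 (0.91 ± 0.13) and Col4a2 506, 293 and 377 at FD19 and 1049, 606 and 866 at FD22 (1.09 ± 0.22), both without overlap. The laminin chain genes Lamb2 and Lamb3 rose by 1.09 ± 0.23 and 1.00 ± 0.19. The gene called lower was Col18a1, whose product releases endostatin, with 424, 281 and 234 at FD19 and 153, 97 and 138 at FD22 (-1.22 ± 0.29, total RNA -2.35). Elastic fibre and fibronectin genes were higher in 10 of 26 cases and lower in 1 (median 0.32), or in 4 without FD19 replicate 2 and 6 without FD22 replicate 3. Fn1, the fibronectin gene, had polysomal signals of 1013, 793 and 1071 at FD19 and 2359.7, 1903 and 2130.1 at FD22 (1.15 ± 0.12, adjusted p = 5.62e-06, total RNA 0.68), and Fbln5, which guides elastin onto fibres, had 313, 466 and 534 at FD19 and 842, 944 and 1095 at FD22 (1.15 ± 0.17). Eln, the elastin gene, rose by 0.63 ± 0.14 and Postn by 0.59 ± 0.12.

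Cartilage matrix genes were lower in 5 of 16 cases and higher in 0 (median -0.44), or in 3 with the arrays numbered 2 and 3 alone. Col9a1 fell by 1.61 ± 0.32 and Cnmd, an inhibitor of vessel growth in cartilage, by 1.73 ± 0.29, beside Mia. Contractile genes of smooth muscle were lower in 6 of 23 cases and higher in 1, which was Itga8 (1.07 ± 0.18). Tagln, an actin-binding protein of contractile cells, had polysomal signals of 1263, 1303 and 1223 at FD19 and 653, 707 and 621 at FD22 (-0.93 ± 0.18), Actg2 had 580.2, 707 and 538 at FD19 and 230.4, 286 and 239 at FD22 (-1.25 ± 0.24), and Cnn1 and Myh11 fell by 1.16 ± 0.19 and 0.84 ± 0.20. In the mesenchyme list 6 of 24 were higher and 0 lower. Tcf21, a regulator of lung fibroblasts, had 1079, 1064 and 1274 at FD19 and 2064, 1827 and 2143 at FD22 (0.82 ± 0.14), and Thy1 rose by 0.93 ± 0.18. Of 20 heart and skeletal muscle genes 0 were called in limma, with summed signals between 2962 and 8670.1 at FD19 and between 1760.2 and 7685 at FD22.

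Growth and patterning signals changed gene by gene. Igf2, the fetal growth factor, had polysomal signals of 2614, 1835 and 1754 at FD19 and 1046, 934 and 816 at FD22. All FD22 arrays were dimmer, and the change was -1.13 ± 0.17 (adjusted p = 0.00015, total RNA -1.03). Among 21 imprinted genes 2 were higher and 4 lower, with Grb10, a brake on insulin signalling, at 2369, 2514 and 2361 at FD19 and 1494, 1558 and 1629.9 at FD22 (-0.63 ± 0.12). The higher count was 0 without FD19 replicate 2, FD19 replicate 3 or FD22 replicate 1 and 1 without any other lysate, and the block gave 4 higher and 9 lower. H19, a noncoding RNA from the locus of Igf2, had 1911, 708 and 792 at FD19 and 413, 514 and 395 at FD22, where FD19 replicate 1 stood far above the other arrays, and fell by 1.21 ± 0.24. Without that lysate the change was -0.77 (adjusted p = 0.00196). Igfbp7 rose by 0.58 ± 0.11. Of the hedgehog genes 1 of 9 was higher, the antagonist Hhip (144, 152 and 180.5 at FD19 and 291, 466 and 328 at FD22, 1.14 ± 0.21), and 2 were lower (4 under the block), among them Gli1, the pathway's target and effector (135, 90 and 92.1 at FD19 and 43.3, 39 and 20.7 at FD22, -1.51 ± 0.35). TGF-beta and BMP genes were higher in 5 of 39 cases (3 without FD19 replicate 2 or FD22 replicate 1) and lower in 4 (2 without FD19 replicate 1 and 7 under the block). Inhbb, a subunit of activin B, had 38.3, 46.1 and 61.9 at FD19 and 228, 189.8 and 272 at FD22 (2.13 ± 0.22), Bmp4 and Bmp6 rose by 0.76 ± 0.13 and 0.88 ± 0.15, and Tgfb2 and Bmp5 fell by 0.84 ± 0.15 and 0.70 ± 0.14. Of 29 Wnt genes 2 were higher and 4 lower, the latter 0 without FD19 replicate 2 or FD22 replicate 1 and 1 without any other lysate. The lower count was 2 with the 6 polysomal arrays fitted alone and 0 with the arrays numbered 2 and 3 alone. The Wnt inhibitor gene Wif1 rose from 336, 469 and 506 at FD19 to 896, 852 and 1195 at FD22 (1.16 ± 0.18).

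For most genes the changes in polysomal and total RNA of the same lysates lay close together. In total RNA 2322 genes were called (20.0%), and 1539 were called in both in the same direction, 67.6% of the polysomal and 66.3% of the total calls, with 0 in opposite directions. Of the 2275 polysomal calls 2251 had a total change of the same sign, and the arrays of both kinds share their lysates. Their median change was 0.78 in size and their median distance from the total change 0.20. The difference between the polysomal and the total change was tested for each probe set and 0 of 21675 passed, with 781 at an unadjusted p under 0.05 (3.6%) and a smallest adjusted p of 0.987. That fit does not use the pairing of polysomal and total arrays by lysate. With the lysate as a block 0 passed as well (smallest adjusted p = 0.167), but 1553 of the 21675 had an unadjusted p under 0.05. After quantile normalization 1 passed, a probe set annotated to several genes (Rpl10 and relatives, adjusted p = 0.0487). This does not show that the fractions changed equally: the 95% interval of the difference lay within 2-fold either way for 8772 of the 11590 genes and had a median half-width of 0.57. On simulated data 25.4% of 2-fold and 77.3% of 4-fold differences were called. Most shifts of 2-fold or less in ribosome loading would thus have been missed. A total of 736 genes were called in polysomal RNA alone and 783 in total RNA alone, and these are not shown to differ between the fractions.

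The genes with the smallest unadjusted p of that difference were Rplp0 (difference -0.75), the cathepsin gene Ctsh (-0.90), the fibrillin gene Fbn2 (0.91), Sftpa1 (-0.83), Pbk (-1.25) and the basement membrane gene Nid2 (0.66), none of which passed the adjustment. Nid2 had polysomal signals of 490.2, 473 and 454 at FD19 and 462, 473 and 483 at FD22. They overlapped between stages, while its total RNA changed by -0.66. Sftpa1 rose by 1.32 on polysomes against 2.15 in total RNA, and Ctsh by 0.84 ± 0.14 against 1.74. Lyz2 stood at a difference of -1.37 (unadjusted p = 0.00141, adjusted p = 0.999).

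**Figure D4:**
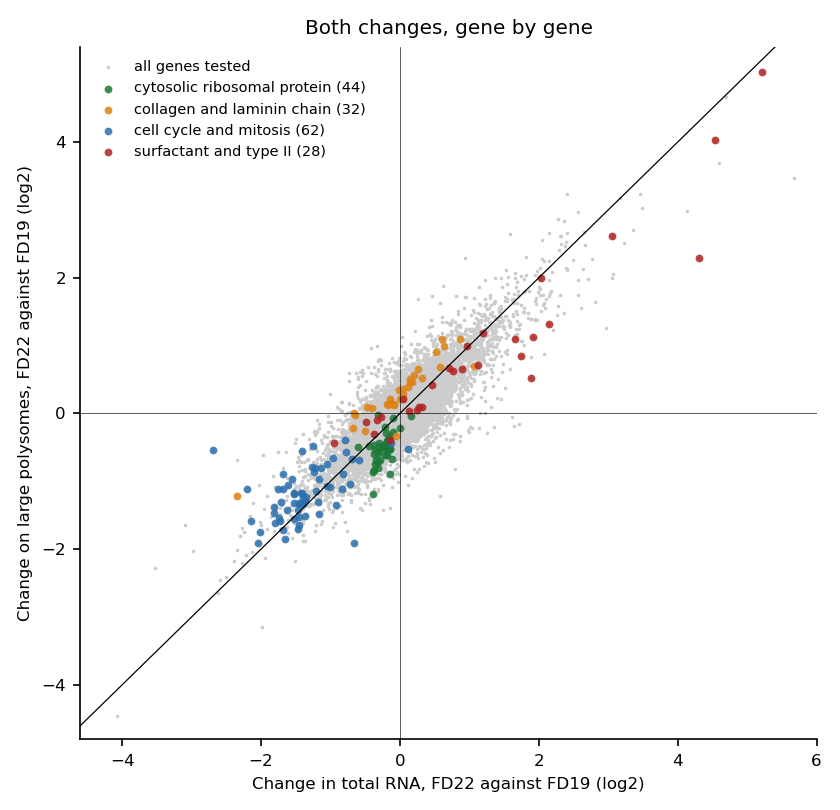
Change from FD19 to FD22 in polysomal RNA (vertical axis) against total RNA (horizontal axis), both log2, for 11590 genes, with ribosomal protein, collagen and laminin, cell cycle, and type II cell genes in colour. Most genes lie near the diagonal, 40 of 44 ribosomal protein genes lie under it and 30 of 32 collagen and laminin genes above it.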

How the data were processed

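The deposited table holds linear intensity per probe set, made by the authors with GCOS 1.4 per the submitters' processing notes. The summarization algorithm is not given in the sources used here, and raw image files were not used here. Arrays carry cRNA made from 5 ug of RNA per the labels' protocols. As the values show, every array is scaled to a common trimmed mean of about 150.

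Of 31099 probe sets 57 controls were left out, and 21675 with a signal above 40.8 (the 40th percentile) in at least 3 of 18 arrays were kept. Deposited intensity was converted here to log2(signal + 5.5) and tested with limma 3.58.1 (R 4.3.3; lmFit and eBayes with trend), using 6 group means over all 18 arrays and 12 residual degrees of freedom. P-values were adjusted by Benjamini-Hochberg over the probe sets kept. The polysomal minus total difference was a contrast of the same fit. The platform annotation names 1 gene for 20826 probe sets, more than 1 for 436 and no gene for 9780, and 20758 matched the RefSeq gene table. Where several probe sets of a gene were kept, the one with the highest mean signal stands for it.

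Deviations from the group means of equally numbered polysomal arrays at FD19 and FD22 correlated with r = 0.498, 0.287 and 0.226. Unequally numbered polysomal arrays gave r from -0.38 to 0.108. In total RNA equally numbered arrays gave 0.371, 0.221 and -0.0307, so replicate 3 showed no such pairing there. The replicate number was therefore also fitted as a block within each kind of RNA, as an alternative only. For the polysomal minus total difference the block was the lysate, which gave 1 array of each kind. Lysates left out and the replicate block are printed beside the count of a gene list where they moved it by over 1.5 times to or from at least 3 genes. Other settings, among them fits of the polysomal arrays alone or without the trend, moved some counts as much. They are printed only in part. Smaller counts often moved by 1 or 2 and are not all printed. The labels name no litter, batch or day shared across stages, and this pairing rests on the data alone. The alternatives were other constants, filters, scalings and fits, each lysate left out, and the arrays numbered 2 and 3 alone.

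Genes were named by a rule: the 10 largest called rises and falls without overlap and with both mean signals above the filter level, up to 5 genes per direction bright at 1 stage only, up to 6 called members of each of 53 lists, the smallest p of the polysomal minus total difference, the brightest probe sets, markers and 10 set genes. Not every list member so chosen is printed, and those whose calls held under all settings are preferred. The genes whose promoters are printed, and the array-specific liver and muscle genes, were chosen after their values were seen. The gene lists and the comparison were chosen with earlier results of these data known.

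The fit was tested on simulated data with known changes in 200 of 21675 probe sets. In the polysomal comparison 20.9% of changes of 1.5-fold were found, 65.7% of those of 2-fold and 92.4% of those of 4-fold, and 5.6% of calls were false. For the polysomal minus total difference the shares were 4.5%, 25.4% and 77.3%. Python 3.11.15, pandas 2.3.3 and matplotlib 3.10.9 made tables and figures.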

Additional observations from a re-analysis of the deposited data

How the results depend on the processing

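The 3451 probe sets called in polysomal RNA became 2076 with the arrays numbered 2 and 3 only and 5481 with the replicate number as a block, and lay between 1996 (without FD19 replicate 2) and 3341 (without FD22 replicate 2) when 1 lysate was left out, with 2290 without FD19 replicate 1. In total RNA 3520 became 2330 with the arrays numbered 2 and 3 only and 3524 with the block, and lay between 2359 and 3149 with 1 lysate left out. The polysomal minus total difference gave 0 calls in the main analysis and under every alternative except quantile normalization, which gave 1. The 523 list members called fell to 346 without FD19 replicate 2, the lowest of a range that reached 485, and were 704 with the block. Other settings kept these counts within 1.5 times. Of the 168 genes given with values and called, 163 kept their calls under all 18 settings in which they were tested (the filter at the 60th percentile left 166), and the exceptions were Defb4, Fgg, Nkx2-1, Phgdh and Vegfa. List members whose calls held under all settings were preferred for printing, so this share does not measure how stable calls are in general. The replicate block ended the call of Nkx2-1 and of no other named gene.

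Changes of sign occurred only in named genes that were not called. With 1 lysate left out, Sftpc ran from -0.01 (without FD22 replicate 2) to 0.23, Hbb from -0.04 (without FD22 replicate 2) to 0.19, Alb from -0.89 (without FD22 replicate 2) to 2.63, Afp from -2.18 (without FD22 replicate 2) over -0.34 (without FD19 replicate 1) to 1.70, Ctnnb1 from -0.02 (without FD19 replicate 1) to 0.20 and Gnas from -0.08 to 0.06 (without FD19 replicate 3 or FD22 replicate 1). Gnas stood at 0.01 with median centring, and the 1st percentile as the constant gave Afp -0.31. The medians of 53 lists kept their sign under median centring except that of cholesterol synthesis, and under quantile normalization except those of cholesterol synthesis and of antioxidant genes. The cause of these shifts was not tested. With 3 arrays per stage the simulated test missed most 1.5-fold changes, and the signal level limits genes near the constant added, such as Cldn6 at FD22.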

Other observations

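Other gene groups had smaller counts. Of 18 retinoid genes 5 were higher and 1 lower on large polysomes (2 or 3 higher without any 1 lysate of FD19 replicates 1 and 2 or FD22 replicates 1 and 3, and 3 lower under the replicate block), with Rdh10, which starts the synthesis of retinoic acid, at 107, 125 and 156 at FD19 and 209.8, 214 and 271 at FD22 (0.82 ± 0.19, adjusted p = 0.00469). Of 19 metalloproteinase and inhibitor genes 5 were higher and 2 lower (2 or 3 higher without any 1 FD19 lysate or without FD22 replicate 3), among the former Timp3 and the protease gene Adamts1 (0.80 ± 0.18). Neural and Schwann cell genes were lower in 4 of 17 cases (2 without FD19 replicate 1) and higher in 1, with Stmn2, a tubulin regulator of growing neurites, at 124, 118 and 106 at FD19 and 49, 62.7 and 49 at FD22 (-1.04 ± 0.25) beside Uchl1. In the FGF, Notch and Sprouty list 3 of 30 were higher (1 without FD19 replicate 2 or FD22 replicate 3) and 0 lower, while the block gave 5 higher and 2 lower. Dll1, a Notch ligand gene, had dim polysomal signals of 4.3, 7.6 and 11 at FD19 and 40, 25.4 and 44.8 at FD22 and rose by 1.69 ± 0.42, against 0.26 in total RNA, a difference that was not called.

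The counts of secretory and folding genes moved with the fit. Of 41 genes of the endoplasmic reticulum 1 was higher (3 without FD22 replicate 1) and 3 lower (5 without FD22 replicate 2), while the replicate block gave 5 higher and 7 lower. Among the lower was Ssr1, a part of the translocon complex, at 1097, 1262 and 1273 at FD19 and 574, 936 and 647 at FD22 (-0.78 ± 0.18). Heat shock genes were higher in 3 of 28 cases and lower in 4, and both counts were 0 without FD19 replicate 2, while 1 of the higher and 2 of the lower were left without FD19 replicate 1, 1 of the lower without FD19 replicate 3, 1 and 1 without FD22 replicate 1 and 2 of the lower without FD22 replicate 2. With the 6 polysomal arrays fitted alone 0 of the lower were left. Transfer RNA synthetase genes were lower in 3 of 19 cases, 0 without FD19 replicate 2 and 1 without FD19 replicate 3 or FD22 replicate 1. Collagen modifying genes were higher in 2 of 17 cases (4 without FD22 replicate 1, 2 without FD22 replicate 2 and 1 without any other lysate) and lower in 1, iron genes higher in 2 of 14 (1 without any 1 FD19 lysate or FD22 replicate 1), p53-linked genes higher in 2 of 23 (5 under the block, with 2 lower) and long noncoding RNAs lower in 2 of 6 (4 without FD22 replicate 1 and 1 without any other lysate). Of 6 genes for IGF-binding proteins 1 was higher, Igfbp7, and 1 lower, Igfbp2. In the list of liver and thymus genes 1 of 6 was higher, Fgg (2.62 ± 0.74), a call that ended without FD19 replicate 1 or 2, and the change was 1.51 without FD22 replicate 2. The summed signal of that list lay between 184 and 326 at FD19 and between 239.8 and 9271 at FD22, the highest value on FD22 replicate 2.

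The probe sets with the highest mean polysomal signal stood for Hbb, Gnas, Sftpc, Ctnnb1 and Tmsb4x, and none of these was called. Gnas, a G protein subunit, changed by -0.01 ± 0.14, the junction and Wnt signalling gene Ctnnb1 by 0.08 ± 0.14 and the actin-binding peptide gene Tmsb4x by 0.12 ± 0.14, each with stages that differed by less than the test could resolve.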
